A study of Mus musculus with 4 samples.

Results

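RNA sequencing compared Cre-treated with floxed inner medullary collecting duct (IMCD) cells of the mouse after 4 days without serum. A gene was taken as measured when it had at least 1 FPKM in either serum-starved library, which held for 12687 of the 37981 gene loci listed, and each is described by the log2 ratio of FPKM + 1 in the Cre-treated library to FPKM + 1 in the floxed library. FPKM, a count of fragments per length of transcript and per size of library, is a level scaled to transcript length and library size. The cells came from C57B/l mice whose Tgfbr2, the gene of the TGF-β type II receptor (TβRII), is floxed, and the line was immortalized with psv40. TβRII-/- cells had been given adeno-Cre and TβRII fl/fl cells had not, and the same pair was also sequenced in serum-replete medium, which gives 4 libraries with 1 for each genotype and medium. Only the TβRII-/- cells met the virus and Cre, so their effects and the loss of the receptor cannot be told apart, nor can drift between the 2 populations, and both media sampled those same populations. With 1 library a side there is no replicate check and no test, so each difference describes the 2 libraries.

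TGF-β ligands bind TβRII, which recruits and phosphorylates the type I receptor, and that receptor phosphorylates SMAD2 and SMAD3. The pathway restrains epithelial proliferation, drives matrix production and shapes epithelial differentiation, and in the collecting duct it acts beside water and salt transport. Serum supplies lipoprotein cholesterol, growth factors and TGF-β, so that cells without it must make their own sterols and rely on factors they secrete themselves. Metabolic enzymes, secreted proteins, membrane proteins and transcription factors are described below in that order. For each gene the level in TβRII-/- cells stands before the level in TβRII fl/fl cells, and a gene is called higher or lower where the log2 ratio was at least 1 in size, a 2-fold difference of FPKM + 1.

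Tgfbr2 itself was 73.7 against 143 FPKM, a log2 ratio of -0.94. The value is for the whole gene and carries no information on the floxed exon. The size of the smallest values corresponded to about 33400000 reads in the TβRII-/- and 33200000 in the TβRII fl/fl library, under an assumed fragment length of 200 bp. On that estimate 1 read on a transcript of 2000 bases was worth about 0.0166 and 0.0167 FPKM. The estimate is rough, as only 61.7% and 56.4% of low values lay within 10% of a whole step. Of the markers of collecting duct epithelium, Hoxb7 (35.6 against 53.3 FPKM), Pax8 (129 against 206 FPKM) and Wnt7b (48.2 against 55.4 FPKM) were present in both libraries, whereas Aqp2, the water channel that defines principal cells, was listed at 0 in both and Epcam was under 1 FPKM in both. Cdh1 (E-cadherin) was 0.156 against 1.79 FPKM. Scnn1a, a sodium channel subunit of principal cells, was low, at 2.84 against 1.24 FPKM. Of the 18 loci on this list 11 were measured, and 4 (Aqp2, Emx1, Calb1 and Ret) were listed at 0 in both libraries. Elf5 and Aqp3 were under 1 FPKM in both. Some lineage factors of the labelled cell type were thus present and others not measured, and the defining water channel was not detected. Of 10 intercalated cell loci 2 were measured, with summed levels of 38.5 against 45.6 FPKM. Of 16 proximal tubule loci 5 were measured, with summed levels of 118 against 221 FPKM: Ggt1 (0.0758 against 47.3 FPKM) and Aqp1 (0.499 against 48.5 FPKM) were lower, and Lrp2 (20.4 against 4.19 FPKM) and Cyp4b1 (24.3 against 2.01 FPKM) higher, in TβRII-/- cells. Of 11 loci of the loop of Henle and distal tubule 4 were measured, with summed levels of 3.62 against 26.1 FPKM, led by Umod (0.246 against 13.3 FPKM). The part of these segment markers in the results was not tested. The markers of endothelium and leukocytes were low: 3 of 12 and 6 of 13 listed loci were measured, with summed levels of 52.3 against 36.6 FPKM and 24.996 against 29.6 FPKM. Among 16 fibroblast and pericyte loci 6 were measured, led by Vim (2129.6 against 1043 FPKM), S100a4 (392 against 99.8 FPKM) and Tagln (298 against 163 FPKM), which cultured epithelium also expresses, while Postn was 0.140 against 2.89 FPKM. In bulk RNA, fewer cells of a type and less RNA per cell cannot be told apart.

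Of the 12687 genes, 1018 (8.02%) were at least 2-fold higher and 842 (6.64%) at least 2-fold lower in TβRII-/- cells, and the median log2 ratio was 0.03. These are the background for every count below, though among genes above 100 FPKM in the higher library 14.6% were higher and 6.18% lower. Rescaling the libraries to a common upper quartile moved the median by -0.13 and the counts to 837 higher and 986 lower, so the excess of higher genes depends on the scale. At 4-fold, 308 genes were higher and 250 lower. The share past 2-fold in either direction was 19.2% among genes of 1 to 5 FPKM, 10.9% among genes of 20 to 100 FPKM and 20.8% above 100 FPKM. Short RNAs stood far outside this range, with 84.5% of 58 snRNAs and 74.5% of 106 miRNA genes past 2-fold against 12.9% of 10979 protein-coding genes. FPKM is unreliable at such lengths, so only protein-coding genes and loci that join several genes are named.

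The largest differences were in genes that were abundant in one library and close to undetected in the other. Gpx3, a secreted glutathione peroxidase of kidney tubules, was 20.5 against 10074 FPKM, a log2 ratio of -8.87, the lowest ratio of the protein-coding genes. Krt8, a keratin of simple epithelia, was 0.133 against 142 FPKM, a log2 ratio of -6.98. Dkk3, a secreted member of the Dickkopf family, was 0.493 against 85.3 FPKM, a log2 ratio of -5.85. The floxed library held these 3 genes at 85 to 10074 FPKM while the Cre-treated library held 2 of them under 1 FPKM. Ggt1 (gamma-glutamyl transferase, which breaks down extracellular glutathione) was 0.0758 against 47.3 FPKM, a log2 ratio of -5.49. Serpina6, the plasma carrier of glucocorticoids, was 1.47 against 101 FPKM, a log2 ratio of -5.37. The water channel Aqp1 was 0.499 against 48.5 FPKM, a log2 ratio of -5.04. The tight junction protein Cldn2 was 1.21 against 50.2 FPKM, a log2 ratio of -4.53. The chemokine-scavenging receptor Ackr3 was 0.124 against 24.2 FPKM, a log2 ratio of -4.49. Other genes at this end were Ntm (0.389 against 39.3 FPKM, -4.86), a neural adhesion protein, Vit (0.0230 against 28.4 FPKM, -4.84), Pgm5 (0.0388 against 27.7 FPKM, -4.79), Ndn (0.215 against 27.9 FPKM, -4.57), a growth suppressor imprinted in mouse, Npepl1 (0.0731 against 24.4 FPKM, -4.57) and Eya2 (0.0293 against 22.1 FPKM, -4.49), the last a transcriptional coactivator. The third value in each bracket is the log2 ratio, here and below.

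At the other end stood surface and secreted genes. Pdpn, a mucin-type membrane glycoprotein of mesothelium, lymphatic endothelium and podocytes, was 146 against 2.72 FPKM, a log2 ratio of 5.31. Msln (mesothelin), a lipid-anchored surface protein of mesothelium, was 216 against 7.74 FPKM, a log2 ratio of 4.63. Nppb, which encodes B-type natriuretic peptide, was 82.8 against 2.30 FPKM, a log2 ratio of 4.67. Sgce, a sarcoglycan, was 44.7 against 0.311 FPKM, a log2 ratio of 5.12. All 4 were low in TβRII fl/fl cells, at 0.311 to 7.74 FPKM, and all 4 were also at least 2-fold higher in serum-replete TβRII-/- cells. Klhl30 (70.1 against 1.41 FPKM, 4.88), Syt8 (50.9 against 1.20 FPKM, 4.56) and Hoxd13 (21.0 against 0.0455 FPKM, 4.39) were next to them, as were S100a7a (42.8 against 0.965 FPKM, 4.48) and Sprr1a (49.6 against 1.78 FPKM, 4.18), which are genes of stratified epithelia. Prmt2, an arginine methyltransferase, was 432 against 18.5 FPKM, a log2 ratio of 4.47, but 122 against 288 FPKM in serum-replete medium, where its log2 ratio was -1.23. The ranking also held Gm6020, Gnl3l, 9530068E07Rik, Syne2, Gm3625 and Psd3, which were listed at 0 in one library. For 4 of them (Gnl3l, 9530068E07Rik, Syne2, Psd3) the deposited status was FAIL, so a 0 there may be a failed estimate. Gm6020 (chr19:61183890-61183955) and Gm3625 (chr12:4592826-4592927) are very short loci, at which FPKM is unreliable.

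**Figure D1:**
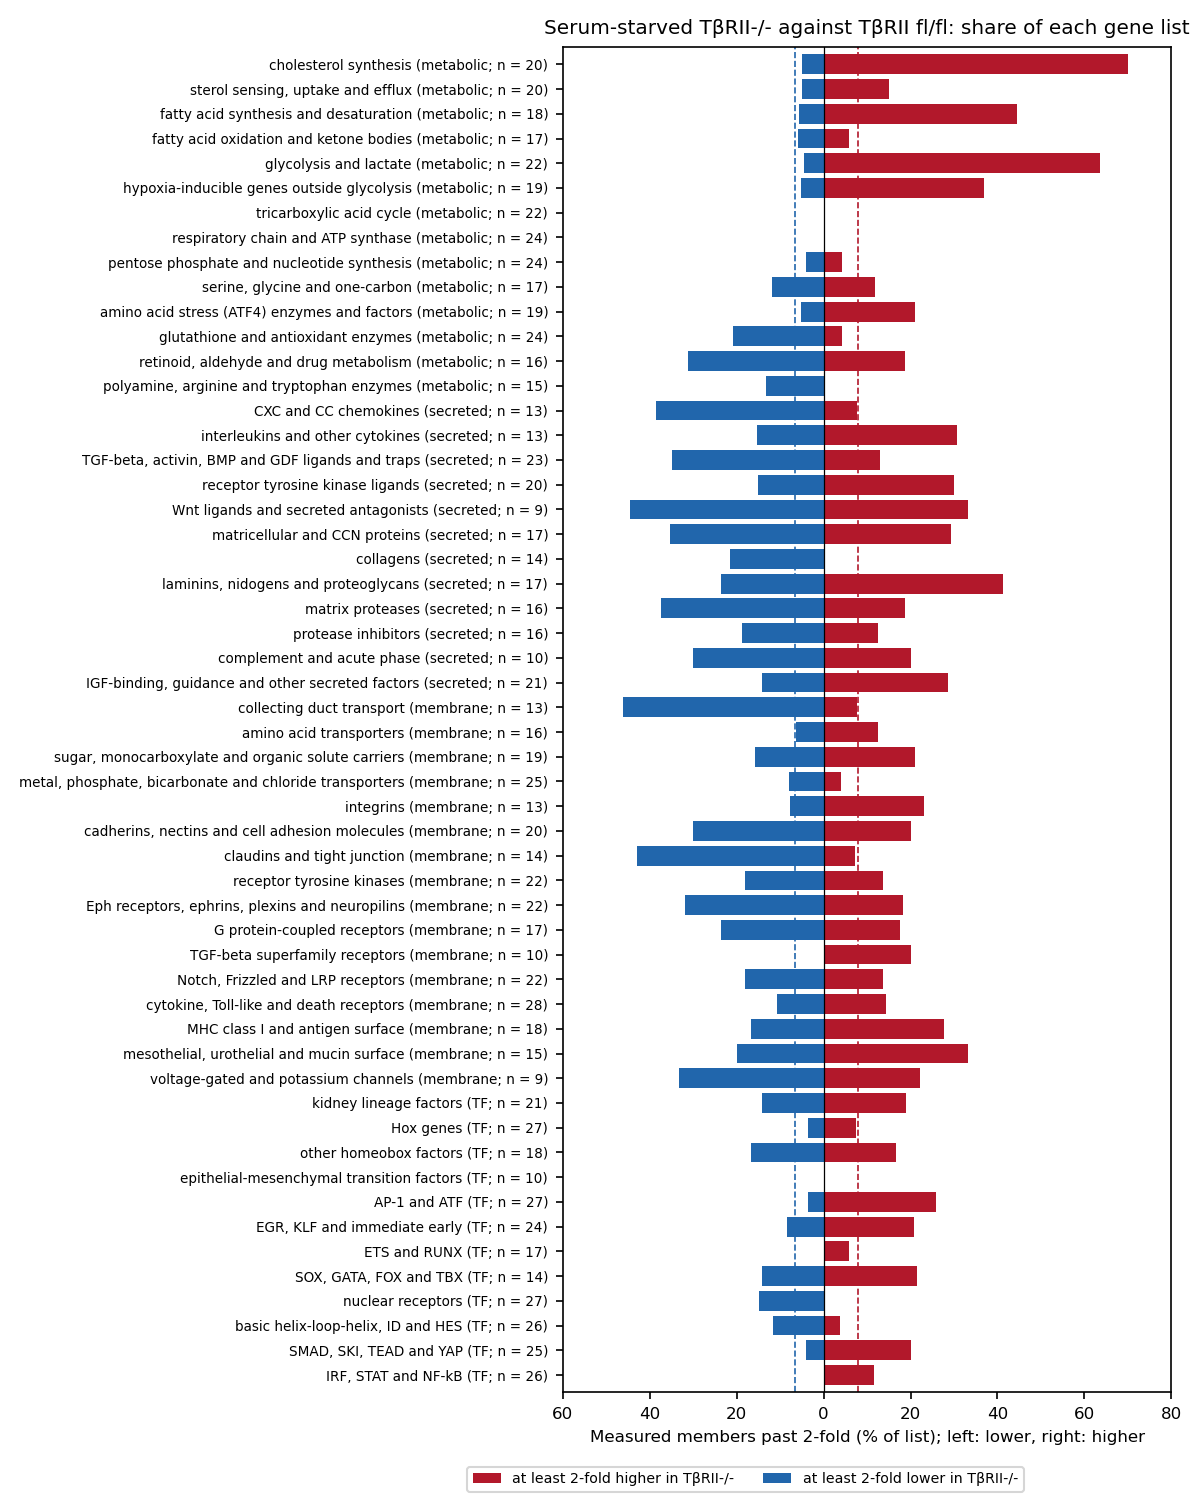
Share of the measured members of each gene list that were at least 2-fold higher (red, to the right) or lower (blue, to the left) in serum-starved TβRII-/- than TβRII fl/fl cells, in percent of the list, with n the measured members. Dashed lines mark the shares over all genes, 8.02% higher and 6.64% lower; cholesterol synthesis (14 of 20 higher) and glycolysis (14 of 22 higher) reach farthest to the right, and collecting duct transport (6 of 13 lower) and claudins (6 of 14 lower) are among those farthest to the left.

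In metabolism the sterol pathway differed most. Cells make cholesterol from acetyl-CoA by way of mevalonate, squalene and lanosterol, and the transcription factor SREBP-2 switches on the whole set when membrane sterol falls. Of 20 measured cholesterol synthesis genes, 14 were at least 2-fold higher and 1 was lower in TβRII-/- cells, and the list median was 1.31 against 0.03 over all genes. On the upper-quartile scale 12 were higher, and the locus of Tm7sf2 was among those lost. No other list of at least 10 measured genes held a larger share past 2-fold. The first step, the joining of acetyl units, is the work of Acat2, at 156 against 30.3 FPKM, a log2 ratio of 2.33. Hmgcs1, which makes HMG-CoA, was 508 against 255 FPKM, a log2 ratio of 0.99, just under 2-fold. The mevalonate kinases Mvk and Pmvk were 62.4 against 33.7 FPKM and 119.8 against 22.3 FPKM, log2 ratios of 0.87 and 2.37, and Pmvk had the highest ratio of the list. Mvd, the decarboxylase, was 124 against 42.9 FPKM, a log2 ratio of 1.51. The isomerase Idi1 was 243 against 72.4 FPKM, a log2 ratio of 1.73. Fdps, which makes farnesyl pyrophosphate, was 747 against 302 FPKM, a log2 ratio of 1.30.

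The 2 enzymes of the squalene branch point were closer between the libraries. Fdft1 (squalene synthase) was 129.9 against 87.0 FPKM, a log2 ratio of 0.57. Sqle (squalene epoxidase) was 212 against 118 FPKM, a log2 ratio of 0.84. Lss, which closes the ring to lanosterol, was again far apart, at 293 against 59.0 FPKM, a log2 ratio of 2.29. Of the enzymes that turn lanosterol into cholesterol, Cyp51 was 354 against 118 FPKM, a log2 ratio of 1.58. Sc5d was 186 against 50.4 FPKM, a log2 ratio of 1.87. Dhcr7, Ebp, Hsd17b7 and Nsdhl had log2 ratios of 1.502, 1.40, 1.31 and 1.29. The locus that holds Tm7sf2 together with Vps51 and Zfpl1 was 208 against 96.2 FPKM, a log2 ratio of 1.103. Sc4mol (Msmo1) was 689 against 362 FPKM, a log2 ratio of 0.93, one of the most abundant of the set and just under 2-fold. The members given here had log2 ratios from 0.57 to 2.37. In serum-replete medium none of 19 was past 2-fold, and the median was -0.10: Fdps was 107 against 115 FPKM there and Lss 26.4 against 20.3 FPKM. Whether the genotype difference depends on serum was not tested.

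**Figure D2:**
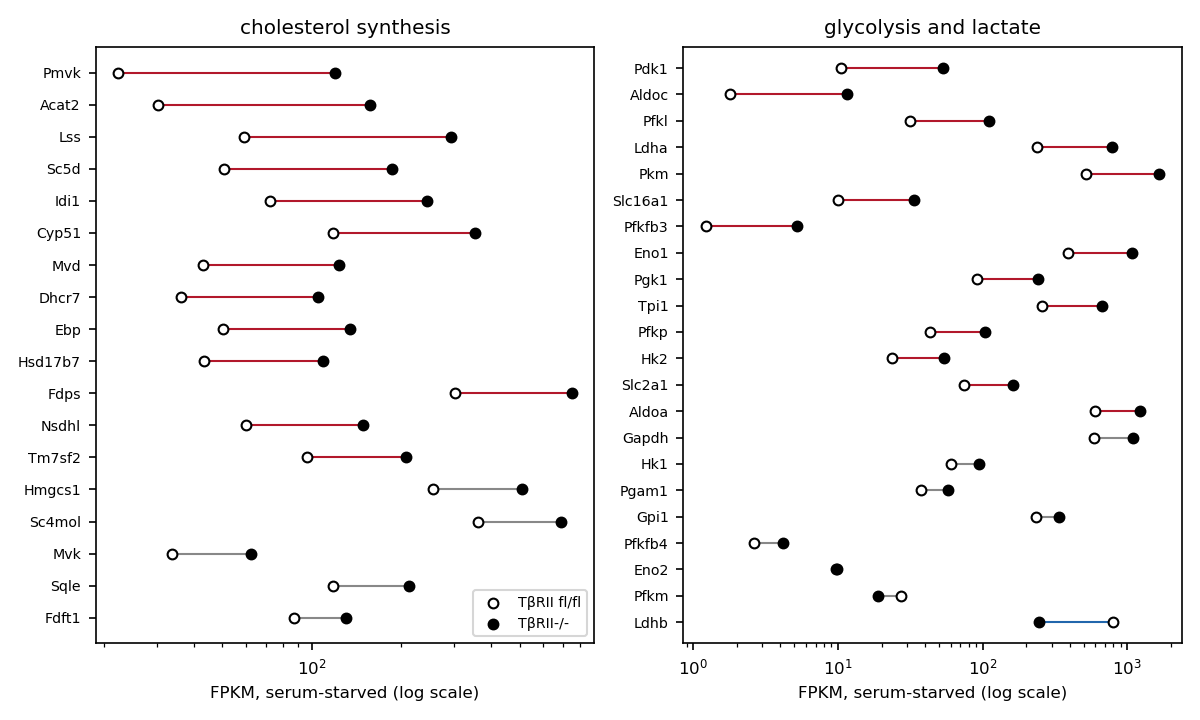
FPKM on a log scale in serum-starved TβRII fl/fl (open circles) and TβRII-/- cells (filled circles) for 18 measured members of the cholesterol synthesis list (left) and the 22 of the glycolysis list (right), ordered by log2 ratio, 1 library per genotype. Red lines join pairs at least 2-fold higher, blue at least 2-fold lower and grey within 2-fold in TβRII-/- cells; Pmvk has the highest ratio of the left panel, and Ldhb (245 against 797 FPKM) is the only glycolysis gene at least 2-fold lower.

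Promoters of these genes are shown because many of their genes were higher together. CCAAT boxes bind NF-Y, a partner of SREBP at sterol genes. RefSeq promoters (GRCm38.p6, the 300 bases from 250 before to 50 after a start site) were matched to 14 of the measured cholesterol synthesis genes, and 13 of the 14 held CCAAT on either strand at 1 or more of the starts listed for them, against 43.7% of 9046 measured genes and 41.1% of all 27025 genes of the table. Among the cholesterol synthesis genes called higher it was 10 of 11, close to the share of the whole list. For tricarboxylic acid cycle genes, none of which was past 2-fold, it was 12 of 19. A classical sterol regulatory element, TCACNCCAC on either strand, was in 1 of the 14 and in none of the 11 that were higher, against 1.43% of measured genes. Of the 4 genes with the highest ratios that have an entry, Pmvk, Lss and Sc5d held CCAAT or its complement ATTGG (capitals) and Acat2 did not. They lie at chr3:89454291-89454590 (+ strand), chr10:76531355-76531654 (+ strand) and chr9:42264251-42264550 (- strand), with the match beginning at base -136, -62 and -24 from the start site. Pmvk has 2 listed starts, of which 1 is shown, and that window ends upstream of its measured locus, which begins at chr3:89459118. A match is only a match of letters, and binding was not measured.
Pmvk: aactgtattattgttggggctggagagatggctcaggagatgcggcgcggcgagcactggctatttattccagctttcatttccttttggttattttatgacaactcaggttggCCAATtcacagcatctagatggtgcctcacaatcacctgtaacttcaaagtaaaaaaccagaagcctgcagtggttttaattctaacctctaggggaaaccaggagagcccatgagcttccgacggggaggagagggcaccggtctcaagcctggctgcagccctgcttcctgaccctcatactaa
Lss: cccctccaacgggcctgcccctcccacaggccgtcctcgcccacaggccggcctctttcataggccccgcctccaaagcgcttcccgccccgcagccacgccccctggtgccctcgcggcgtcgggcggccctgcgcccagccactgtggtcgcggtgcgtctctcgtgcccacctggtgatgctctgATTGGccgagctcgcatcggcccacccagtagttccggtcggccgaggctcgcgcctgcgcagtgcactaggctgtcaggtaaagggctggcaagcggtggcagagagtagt
Sc5d: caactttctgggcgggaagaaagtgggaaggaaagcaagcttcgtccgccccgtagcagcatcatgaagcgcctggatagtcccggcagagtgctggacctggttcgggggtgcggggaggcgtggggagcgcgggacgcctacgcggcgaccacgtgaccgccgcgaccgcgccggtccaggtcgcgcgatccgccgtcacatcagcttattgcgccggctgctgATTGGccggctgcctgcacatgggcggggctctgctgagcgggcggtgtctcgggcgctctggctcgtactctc

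Of 20 genes of sterol sensing, uptake and export 3 were higher and 1 was lower, with a median of 0.26. Insig1, the endoplasmic reticulum protein that holds SREBP back when sterol is plentiful and is itself an SREBP target, was 555 against 115 FPKM, a log2 ratio of 2.26. Srebf1, which encodes SREBP-1, was 185 against 116 FPKM, a log2 ratio of 0.67, within 2-fold. Abcg1, a sterol exporter switched on by oxysterols through LXR, was 0.374 against 5.05 FPKM, a log2 ratio of -2.14.

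Fatty acid synthesis showed the same direction. Of 18 measured members 8 were higher and 1 was lower, with a median of 0.81, set beside -0.07 when serum was present. Acss2, which makes acetyl-CoA from acetate, was 81.6 against 14.0 FPKM, a log2 ratio of 2.46. Acly, which makes it from citrate, was 270.3 against 109 FPKM, a log2 ratio of 1.30. The elongases Elovl6 and Elovl5 were 58.9 against 13.5 FPKM and 74.7 against 26.7 FPKM, log2 ratios of 2.05 and 1.45. Lpin1, a phosphatidate phosphatase, was 47.0 against 12.9 FPKM, a log2 ratio of 1.79. Me1 (malic enzyme, a source of NADPH) was 101 against 44.3 FPKM, a log2 ratio of 1.17. The abundant desaturases did not pass 2-fold: Scd2 was 1361 against 819 FPKM, a log2 ratio of 0.73. Fads2 was 403 against 405 FPKM, a log2 ratio of -0.01. Gpam, which begins triglyceride assembly, was lower, at 5.73 against 16.3 FPKM, a log2 ratio of -1.37. Fatty acid oxidation genes were near the background, with 1 higher, 1 lower of 17 and a median of -0.14.

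Glycolysis was the second large metabolic block. The pathway splits glucose to pyruvate, and lactate dehydrogenase and monocarboxylate transporters carry the product onward when it does not enter mitochondria. Of 22 measured members 14 were at least 2-fold higher and 1 lower in TβRII-/- cells, with a median of 1.20. Entry was higher: the glucose transporter Slc2a1 (GLUT1) was 163 against 74.7 FPKM, a log2 ratio of 1.12. Hexokinase Hk2 was 54.2 against 23.7 FPKM, a log2 ratio of 1.16. Of the phosphofructokinase subunits, Pfkl was 111 against 31.6 FPKM, a log2 ratio of 1.78. Pfkp was 104 against 43.2 FPKM, a log2 ratio of 1.25, whereas the muscle form Pfkm was 18.8 against 27.1 FPKM, a log2 ratio of -0.50. The later part of the pathway was abundant and higher, with Pkm (pyruvate kinase) at 1668 against 519.7 FPKM, a log2 ratio of 1.68. Eno1 (enolase) was 1086 against 393 FPKM, a log2 ratio of 1.47. Tpi1 was 666 against 256 FPKM, a log2 ratio of 1.38. Aldoa was 1227 against 597 FPKM, a log2 ratio of 1.04. Pgk1 was 241 against 91.4 FPKM, a log2 ratio of 1.39. Gapdh, within 2-fold, was 1093 against 586 FPKM, a log2 ratio of 0.90. Pdk1, a kinase that shuts the pyruvate dehydrogenase gate to mitochondria, was 52.9 against 10.46 FPKM, a log2 ratio of 2.23.

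The lactate dehydrogenase subunits went opposite ways. Ldha, which favors lactate, was 786 against 236 FPKM, a log2 ratio of 1.73. Ldhb, which favors pyruvate, was 245 against 797 FPKM, a log2 ratio of -1.70. Summed over the glycolysis list, the level was 8071 against 4043 FPKM. Of the 14 higher genes, Slc2a1 and Aldoa are past 2-fold by a margin that the upper-quartile scale removes. In serum-replete medium 2 members were higher, Slc2a1 and the lactate exporter Slc16a1, at 1.01 and 1.81 on the log2 scale, and 2 were lower, Ldhb and Pfkm, with -2.25 and -1.19. The median there was 0.26.

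Hypoxia-inducible genes outside glycolysis were shifted the same way after starvation, with 7 of 19 higher, 1 lower and a median of 0.68. In serum-replete medium 1 of 17 was higher and 4 were lower, with a median of -0.25, and 0 were higher in both media. Bnip3 and Bnip3l, which mark mitochondria for autophagy, were 137 against 29.2 FPKM and 162 against 62.5 FPKM, log2 ratios of 2.19 and 1.36. Ero1l, an oxidase of the endoplasmic reticulum, was 87.6 against 35.7 FPKM, a log2 ratio of 1.27. P4ha1 (a prolyl hydroxylase of collagen) was 127 against 56.1 FPKM, a log2 ratio of 1.16. Vegfa, the endothelial growth factor, was 198 against 95.4 FPKM, a log2 ratio of 1.05, a call lost on the upper-quartile scale. Ndrg1, often used as a hypoxia gene, was 351 against 275 FPKM, a log2 ratio of 0.35, within 2-fold, and Stc2 was lower at 17.95 against 37.1 FPKM, a log2 ratio of -1.01. Of the factors themselves, Epas1 (HIF-2α) was 17.6 against 3.51 FPKM, a log2 ratio of 2.05. Hif1a was 75.1 against 66.7 FPKM, a log2 ratio of 0.17. HIF activity is set mainly by protein stability, which was not measured.

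The core of the hypoxia response element, ACGTG on either strand, was in the promoters of 13 of 22 measured glycolysis genes and 11 of 15 of the other hypoxia genes, against 29.7% of measured genes and 21.8% of all genes of the table. For tricarboxylic acid cycle genes it was 6 of 19, and for fatty acid synthesis genes 6 of 13. The hypoxia list was drawn up from hypoxia-inducible genes, so its share describes the list only. Among members called higher, ACGTG was in 9 of 14 glycolysis genes and 5 of 5 other hypoxia genes. Of the 4 genes of both lists with the highest ratios and at least 5 FPKM, Ak4, Bnip3 and Aldoc held it (capitals) and Pdk1 did not, at either of its 2 starts. In Ak4 (chr4:101419453-101419752, + strand) and Bnip3 (chr7:138909457-138909756, - strand) the match is palindromic and counts on both strands, and it begins at base -214 and -108 from the start site. In Aldoc (chr11:78322823-78323122, + strand) the complement CACGT begins 28 bases after the start. Ak4 has 4 listed starts and Aldoc 2, of which 1 is shown.
Ak4: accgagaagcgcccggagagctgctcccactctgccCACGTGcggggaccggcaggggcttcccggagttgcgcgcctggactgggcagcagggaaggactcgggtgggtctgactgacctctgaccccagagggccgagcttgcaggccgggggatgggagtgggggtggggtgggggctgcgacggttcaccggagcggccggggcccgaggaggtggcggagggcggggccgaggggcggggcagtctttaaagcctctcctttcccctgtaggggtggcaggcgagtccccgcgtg
Bnip3: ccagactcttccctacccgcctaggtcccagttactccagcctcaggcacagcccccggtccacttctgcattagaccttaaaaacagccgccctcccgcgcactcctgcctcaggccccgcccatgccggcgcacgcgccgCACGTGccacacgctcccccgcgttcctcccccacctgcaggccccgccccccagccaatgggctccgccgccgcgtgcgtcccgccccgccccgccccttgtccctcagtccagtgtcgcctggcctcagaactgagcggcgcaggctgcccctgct
Aldoc: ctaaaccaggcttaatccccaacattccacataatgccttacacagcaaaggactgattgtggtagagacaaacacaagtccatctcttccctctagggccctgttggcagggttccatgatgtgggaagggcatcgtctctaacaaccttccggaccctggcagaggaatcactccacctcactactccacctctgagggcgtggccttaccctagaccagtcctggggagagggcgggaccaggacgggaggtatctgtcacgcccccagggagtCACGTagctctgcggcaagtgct

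Mitochondrial metabolism did not share in this. Of 22 tricarboxylic acid cycle genes and 24 respiratory chain genes 0 were past 2-fold in either direction, and the medians were -0.17 and -0.15. Mdh2 was 229.7 against 232 FPKM, and Atp5b, the catalytic subunit of ATP synthase, was 924 against 966 FPKM. The nucleotide and pentose phosphate list was also flat, with 1 higher and 1 lower of 24: Rpia, which makes ribose phosphate, was 32.2 against 8.35 FPKM, a log2 ratio of 1.83. Gart, of purine synthesis, was 19.1 against 39.4 FPKM, a log2 ratio of -1.01.

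In amino acid metabolism single enzymes differed by several fold. In the serine and one-carbon list 2 of 17 genes were higher and 2 lower. Psat1, of serine synthesis, was 222 against 95.9 FPKM, a log2 ratio of 1.21. Cbs, which begins transsulfuration of homocysteine, was 18.4 against 85.5 FPKM, a log2 ratio of -2.16. The paired formyltetrahydrofolate dehydrogenases were opposite: cytosolic Aldh1l1 was 0.0232 against 5.31 FPKM, a log2 ratio of -2.63. Mitochondrial Aldh1l2 was 24.7 against 11.3 FPKM, a log2 ratio of 1.06, which is under 2-fold on the upper-quartile scale. In the polyamine, arginine and tryptophan list 0 of 15 genes were higher and 2 lower. Ass1, which makes argininosuccinate, was 6.81 against 33.5 FPKM, a log2 ratio of -2.14, and Arg2 was listed at 0 against 2.43 FPKM. Among ATF4-dependent stress genes 4 of 19 were higher, with a list median of 0.58, among them Chac1, a glutathione-degrading enzyme, at 75.7 against 36.4 FPKM, a log2 ratio of 1.04. Atf4 itself was 474 against 306 FPKM, a log2 ratio of 0.63.

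Antioxidant enzymes were lower more often than higher. Of 24 glutathione and antioxidant genes 5 were lower, against 1 higher, and the median was -0.37. Beside Gpx3 these were the glutathione transferases Gsta3 (0.311 against 11.6 FPKM, -3.27) and Gsta4 (2.46 against 9.76 FPKM, -1.64), Gclc (20.7 against 68.8 FPKM, -1.69), the rate-limiting enzyme of glutathione synthesis, and Nqo1 (6.29 against 22.95 FPKM, -1.72). Gstm2 went the other way, at 224 against 57.0 FPKM, a log2 ratio of 1.95. Over all 12 measured glutathione S-transferases 3 were higher and 2 lower, the other higher ones being Gstm7 (21.9 against 1.72 FPKM, 3.08) and Gstt1 (2.96 against 0.347 FPKM, 1.56). Txnrd1, the locus with the highest level of the list, and Gpx4 were 32419.5 against 32878 FPKM and 6646 against 5149.7 FPKM, within 2-fold. Why Txnrd1 is listed at so high a level in both libraries is not known, and its value is uncertain.

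Retinoid enzymes differed in both directions. Retinaldehyde dehydrogenases make retinoic acid, a morphogen of the kidney. Aldh1a2 was 2.55 against 35.6 FPKM, a log2 ratio of -3.36, while Aldh1a1 was 24.5 against 1.33 FPKM, a log2 ratio of 3.45, and Aldh1a7 followed Aldh1a1 at 11.2 against 1.04 FPKM, a log2 ratio of 2.58. Dhrs3, which reduces retinaldehyde back to retinol, was 15.3 against 60.5 FPKM, a log2 ratio of -1.91. Other aldehyde- and drug-metabolizing genes were split too: mitochondrial Aldh2 was 13.0 against 47.0 FPKM, a log2 ratio of -1.77. The Ugt1a locus, in which several glucuronosyltransferases are joined, was 8.51 against 103 FPKM, a log2 ratio of -3.45. The carbonyl reductase Cbr2 was 415 against 59.2 FPKM, a log2 ratio of 2.79. Of the 16 members measured, 3 were higher and 5 lower.

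Secreted genes were the most divided class. Of 189 measured members of 12 lists, 42 (22.2%) were higher and 50 (26.5%) lower, and 48.7% were past 2-fold in all, against 28.6% of 276 metabolic, 36.5% of 282 membrane and 20.5% of 259 transcription factor genes. The lists were drawn up with earlier results known, so these shares describe the lists only.

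Ligands of the TGF-β superfamily and their traps were lower more often than higher, with 8 lower and 3 higher of 23. Bmp6 was 5.66 against 46.3 FPKM, a log2 ratio of -2.83. Bmp4, a ligand of ureteric and collecting duct development, was 1.40 against 9.03 FPKM, a log2 ratio of -2.06. The activin trap Fst (follistatin) was 12.8 against 89.4 FPKM, a log2 ratio of -2.71. Its relative Fstl1 was 148 against 374 FPKM, a log2 ratio of -1.33. Sostdc1, a trap of BMP and Wnt ligands, was 7.79 against 34.8 FPKM, a log2 ratio of -2.02. Ltbp3, which stores latent TGF-β in the matrix, was 45.1 against 137 FPKM, a log2 ratio of -1.58. The BMP trap Nog (noggin) was opposite, at 12.2 against 0.3999 FPKM, a log2 ratio of 3.23, and so was the stress cytokine Gdf15, at 692 against 288 FPKM, a log2 ratio of 1.26. With serum, 11 of 21 were lower and 2 higher, and 7 were lower in both media.

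Growth factor genes for receptor tyrosine kinases leaned the other way, 6 higher and 3 lower of 20. Tgfa, a ligand of the EGF receptor, was 7.79 against 0.155 FPKM, a log2 ratio of 2.93, and Ereg, of the same family, was 3.41 against 0.207 FPKM, a log2 ratio of 1.87. Kitl (stem cell factor) was 5.82 against 0.701 FPKM, a log2 ratio of 2.00. Bdnf, a neurotrophin, was 17.9 against 7.70 FPKM, a log2 ratio of 1.12. On the lower side stood Gas6, the ligand of Axl, at 6.21 against 26.3 FPKM, a log2 ratio of -1.92. Vegfc, of lymphatic growth, was 1.79 against 8.62 FPKM, a log2 ratio of -1.78. Fgf1, an acidic fibroblast growth factor, was 9.0001 against 25.6 FPKM, a log2 ratio of -1.41. Hbegf, the most abundant EGF family ligand here, was 91.0 against 137 FPKM, a log2 ratio of -0.58, within 2-fold.

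Few Wnt genes were measured, but 7 of 9 were past 2-fold. Wnt7a was 105.3 against 17.0 FPKM, a log2 ratio of 2.56. Wnt9a was 33.0 against 7.33 FPKM, a log2 ratio of 2.03. Both are ligands that signal through Frizzled receptors. Wnt16 was 70.8 against 180.2 FPKM, a log2 ratio of -1.34. Wnt5a was 3.79 against 10.2 FPKM, a log2 ratio of -1.23, and Dkk3, given above, had the lowest ratio of the list.

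Matricellular proteins, which sit in the matrix and signal to cells, held some of the highest levels measured. Cyr61 (CCN1) was 2004 against 287 FPKM, a log2 ratio of 2.80. Ctgf (CCN2) was 1482 against 663 FPKM, a log2 ratio of 1.16. Both are known as direct targets of YAP with TEAD and also of TGF-β. Efemp1 (fibulin-3) was 289 against 39.4 FPKM, a log2 ratio of 2.84. Sparc (osteonectin) was 822 against 279 FPKM, a log2 ratio of 1.56. Spp1 (osteopontin), a product of injured tubules, was lower, at 1607 against 5947 FPKM, a log2 ratio of -1.89. Thbs3, a thrombospondin, was 6.56 against 24.1 FPKM, a log2 ratio of -1.73. In all 5 were higher and 6 lower of 17.

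Genes of the basement membrane differed without a common direction. Laminin-332 is a heterotrimer whose β3 chain is encoded by Lamb3. Lamb3 was 14.8 against 0.479 FPKM, a log2 ratio of 3.42. Hspg2 (perlecan) was 91.6 against 33.8 FPKM, a log2 ratio of 1.41. Agrn (agrin) was 222 against 109 FPKM, a log2 ratio of 1.02, and the glypicans Gpc4 and Gpc1 had log2 ratios of 1.15 and 1.04. Nid1, which links laminin to collagen IV, was 0.391 against 27.3 FPKM, a log2 ratio of -4.35. Of 17 members 7 were higher and 4 lower. None of 14 measured collagens was higher and 3 were lower, of which Col6a1 was 0.422 against 6.15 FPKM, a log2 ratio of -2.33. Col4a1 and Col4a2, of the basement membrane, were 133 against 193 FPKM and 123 against 179 FPKM, within 2-fold after starvation, and 99.4 against 249 FPKM and 82.5 against 194 FPKM in serum-replete medium, log2 ratios of -1.32 and -1.23.

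Proteases that remodel matrix were more often lower, 6 against 3 of 16. Mmp2 was 1.22 against 16.4 FPKM, a log2 ratio of -2.97. The plasminogen activators Plau and Plat were 389.8 against 1126 FPKM and 49.7 against 118 FPKM, log2 ratios of -1.53 and -1.23. Mmp14, which activates Mmp2 at the cell surface, was 145 against 71.3 FPKM, a log2 ratio of 1.02. The serine protease Htra1 was 39.2 against 16.0 FPKM, a log2 ratio of 1.24. Of the protease inhibitors, Timp3 was 137 against 321 FPKM, a log2 ratio of -1.22. Spint1, an inhibitor of hepatocyte growth factor activator, was 0.207 against 6.43 FPKM, a log2 ratio of -2.62.

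Of 13 chemokines 5 were lower and 1 higher, with Ccl2 (MCP-1) at 47.3 against 125 FPKM, a log2 ratio of -1.38. The membrane-tethered Cx3cl1 was 15.9 against 35.8 FPKM, a log2 ratio of -1.12. Ccl17 was 2.34 against 9.15 FPKM, a log2 ratio of -1.61. The exception was Cxcl14, at 15.2 against 0.417 FPKM, a log2 ratio of 3.51. C3, the central complement component, was 3.25 against 32.4 FPKM, a log2 ratio of -2.97. Lbp, which binds lipopolysaccharide, was 5.13 against 39.3 FPKM, a log2 ratio of -2.72. Cp (ceruloplasmin) was 146 against 364 FPKM, a log2 ratio of -1.32. Masp1, a protease of the lectin pathway, was 29.1 against 3.77 FPKM, a log2 ratio of 2.66. The complement and acute phase list was far lower in serum-replete medium, where 10 of 12 were lower and the median was -2.82, against 3 of 10 and -0.82 here.

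Among cytokines 4 were higher and 2 lower of 13. Mif was 217 against 68.6 FPKM, a log2 ratio of 1.64. Lif, a ligand of the gp130 receptor, was 15.1 against 5.76 FPKM, a log2 ratio of 1.25. Il34, a second ligand of the CSF1 receptor, was 42.4 against 102 FPKM, a log2 ratio of -1.25. Semaphorins, which are guidance molecules, differed in both directions, with 3 higher and 4 lower of 14 measured. The family was taken by symbol, not by secretion, after the values were seen. Sema3a was 48.4 against 3.76 FPKM, a log2 ratio of 3.37. Sema3e was 41.5 against 3.58 FPKM, a log2 ratio of 3.21. Sema3b was 106 against 22.6 FPKM, a log2 ratio of 2.18. Sema5a was opposite, at 4.15 against 57.2 FPKM, a log2 ratio of -3.50, and Sema4d, Sema3g and Sema4c had log2 ratios of -1.79, -1.22 and -1.03. Igfbp2 and Igfbp7, which bind insulin-like growth factors, were opposite, at 248 against 42.2 FPKM, a log2 ratio of 2.53 and 484 against 1331 FPKM, a log2 ratio of -1.46. The galectin Lgals9 was 31.7 against 1.80 FPKM, a log2 ratio of 3.55.

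**Figure D3:**
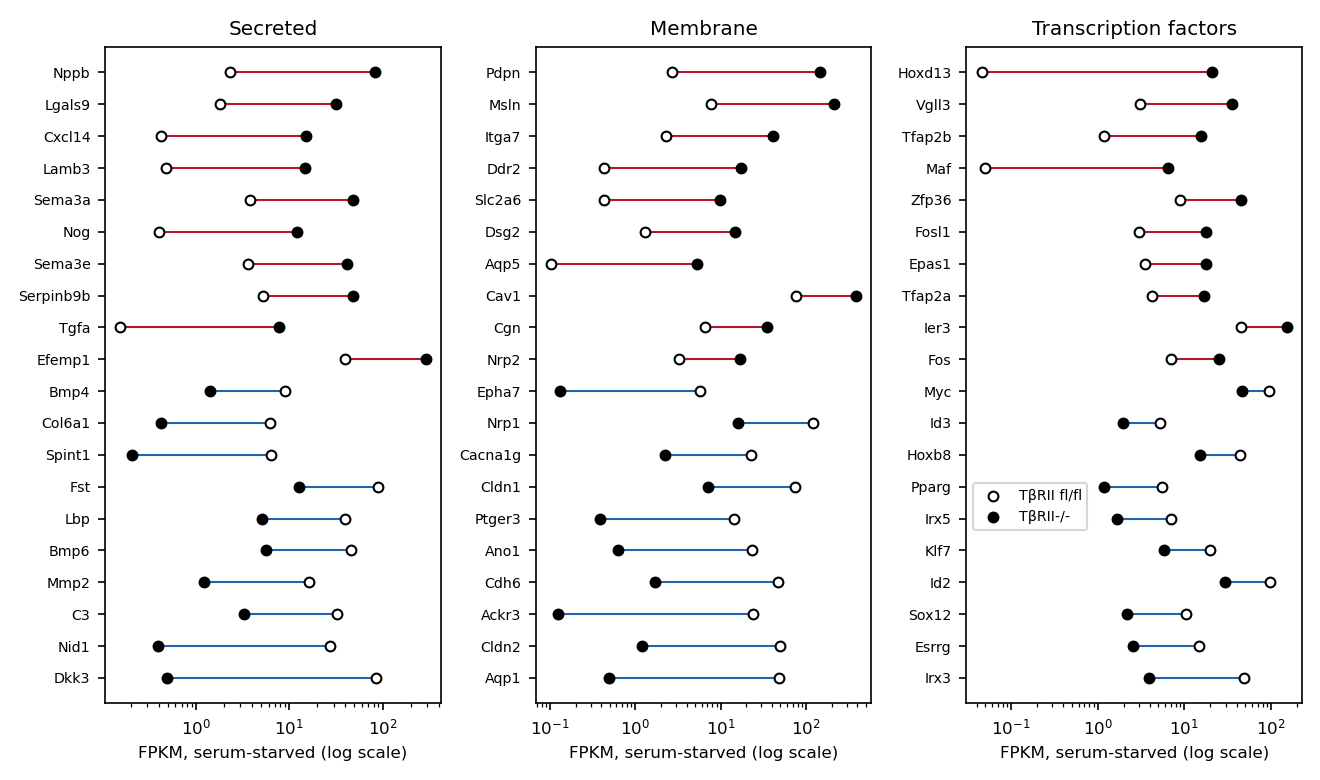
FPKM on a log scale in serum-starved TβRII fl/fl (open circles) and TβRII-/- cells (filled circles) for the 10 highest and the 10 lowest log2 ratios reported among the secreted, membrane and transcription factor lists, with at least 5 FPKM in the higher library and a value above 0 in both, 1 library per genotype. Red lines join pairs at least 2-fold higher and blue at least 2-fold lower in TβRII-/- cells; Nppb, Pdpn and Hoxd13 stand at the top and Dkk3, Aqp1 and Irx3 at the bottom of the 3 panels.

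The list of collecting duct transport holds channels and pump subunits together with genes that regulate them. Of its 13 measured genes 6 were lower and 1 higher, and 3 of the 6, Aqp1, Atp1b1 and Scnn1g, encode channels or pump subunits. Aqp1 is also among the proximal tubule markers given above. Beside Aqp1, Ptger3, a prostaglandin E2 receptor that opposes vasopressin, was 0.384 against 14.3 FPKM, a log2 ratio of -3.47. Atp1b1, the β subunit of the sodium pump, was 256 against 724 FPKM, a log2 ratio of -1.49. Scnn1g, a subunit of the epithelial sodium channel, was 0.109 against 4.47 FPKM, and Hsd11b2 and Nr3c2, of the aldosterone pathway, were 0.314 against 2.83 FPKM and 0.327 against 2.19 FPKM, all low. Aqp5, a water channel of glands, was the one higher member, at 5.25 against 0.103 FPKM, a log2 ratio of 2.503. With serum 5 of the 6 were lower as well.

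Claudins set the selectivity of the tight junction, and 6 of 14 tight junction genes were lower against 1 higher. Cldn1 was 7.07 against 73.7 FPKM, a log2 ratio of -3.21. Cldn4 was 6.51 against 21.6 FPKM, a log2 ratio of -1.59. Cldn19 was 98.6 against 210.3 FPKM, a log2 ratio of -1.09, beside the pore-forming Cldn2 given above. Cgn (cingulin), a cytoplasmic plaque protein, was higher, at 35.3 against 6.62 FPKM, a log2 ratio of 2.25. Among cadherins and other adhesion molecules, Cdh6, a cadherin of early renal epithelium, was 1.69 against 47.5 FPKM, a log2 ratio of -4.17. Cdh11 was 15.6 against 61.5 FPKM, a log2 ratio of -1.91. Cdh16, the kidney-specific cadherin, was 143 against 352 FPKM, a log2 ratio of -1.29. Dsg2, a desmosomal cadherin, was 14.9 against 1.29 FPKM, a log2 ratio of 2.79. Mcam was 55.8 against 14.6 FPKM, a log2 ratio of 1.87. Of 20 such genes 4 were higher and 6 lower.

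Mesothelial and urothelial surface genes leaned the other way, 5 higher and 3 lower of 15. With Pdpn and Msln, Upk3b, a uroplakin found in mesothelium, was 37.8 against 8.28 FPKM, a log2 ratio of 2.06. Cav1 (caveolin-1) was 388 against 76.3 FPKM, a log2 ratio of 2.33. Tspan8 was lower, at 85.0 against 356 FPKM, a log2 ratio of -2.05. The connexin Gja1 was 2.89 against 17.7 FPKM, a log2 ratio of -2.27. Of 13 integrin genes 3 were higher and 1 was lower: Itga6, which with its β4 partner binds laminin-332, was 79.2 against 30.0 FPKM, a log2 ratio of 1.37. Itgb6, which activates latent TGF-β, was 41.3 against 16.3 FPKM, a log2 ratio of 1.29. Itga7, a laminin receptor of muscle, was 41.2 against 2.29 FPKM, a log2 ratio of 3.68. Itgb1, shared by most of them, was 617 against 511 FPKM, a log2 ratio of 0.27, within 2-fold.

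Guidance receptors differed in both directions. Nrp1 was 15.8 against 119.5 FPKM, a log2 ratio of -2.84, while its paralog Nrp2 was 16.8 against 3.22 FPKM, a log2 ratio of 2.08. Epha2 was 97.9 against 23.4 FPKM, a log2 ratio of 2.02, while Ephb2 was 4.21 against 20.9 FPKM, a log2 ratio of -2.07. Epha7 was 0.132 against 5.78 FPKM, a log2 ratio of -2.58. Efnb1, an ephrin ligand, was 9.56 against 29.5 FPKM, a log2 ratio of -1.53. In all 4 were higher and 7 lower of 22. Of receptor tyrosine kinases outside the Eph family, Ddr2, a collagen receptor, was 17.2 against 0.424 FPKM, a log2 ratio of 3.68. Fgfr1 was 10.3 against 24.2 FPKM, a log2 ratio of -1.16. With serum, Ddr2 was 0.374 against 0.294 FPKM.

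Of 10 measured TGF-β superfamily receptors 0 were past 2-fold lower, and 2 were higher, Bmpr2 at 19.4 against 7.39 FPKM, a log2 ratio of 1.28. Acvr2b was 5.57 against 1.34 FPKM, a log2 ratio of 1.49. Of Notch, Frizzled and LRP receptors 3 were higher and 4 lower of 22, with the Notch ligand Jag1 at 25.2 against 64.4 FPKM, a log2 ratio of -1.32. Lgr4, a receptor of R-spondins, was 21.6 against 58.4 FPKM, a log2 ratio of -1.39. Fzd5 was 14.995 against 3.42 FPKM, a log2 ratio of 1.85. The endocytic receptor Lrp2 (megalin) was 20.4 against 4.19 FPKM, a log2 ratio of 2.04. G protein-coupled receptors held Gpr56, an adhesion receptor of collagen III, at 128 against 604 FPKM, a log2 ratio of -2.23. Gprc5c, an orphan receptor, was 90.0 against 297 FPKM, a log2 ratio of -1.71, while its relative Gprc5a was 223 against 94.6 FPKM, a log2 ratio of 1.23. The death receptor Tnfrsf10b was 34.5 against 12.3 FPKM, a log2 ratio of 1.41. Tnfrsf12a, the receptor of TWEAK, was 664 against 281 FPKM, a log2 ratio of 1.24.

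Of 18 genes of class I presentation and antigen surface 5 were higher and 3 lower. The class I heavy chain H2-K1 was 493 against 151 FPKM, a log2 ratio of 1.71. Its partner B2m was 355 against 163 FPKM, a log2 ratio of 1.11 (within 2-fold on the upper-quartile scale), and the locus that joins the loading factor Tapbp with Zbtb22 was 293 against 135 FPKM, a log2 ratio of 1.11. The Ly6 family members Ly6e and Ly6a were lower, at 36.7 against 158 FPKM and 167 against 450.5 FPKM, log2 ratios of -2.08 and -1.42.

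Of metal and anion transporters 4% were higher and 8% lower, and of amino acid transporters 12.5% and 6.25%. Over all genes the shares were 8.02% and 6.64%. Of 25 metal and anion transporters 1 was higher and 2 lower, the latter being Ano1, a calcium-activated chloride channel, at 0.633 against 23.04 FPKM, a log2 ratio of -3.88. Slc40a1 (ferroportin) was 6.27 against 14.5 FPKM, a log2 ratio of -1.09. Of 9 voltage-gated and potassium channels 2 were higher and 3 lower. Kcnj16, a basolateral potassium channel of tubules, was 22.6 against 111 FPKM, a log2 ratio of -2.25. Cacna1g, a T-type calcium channel, was 2.25 against 22.5 FPKM, a log2 ratio of -2.85. Among amino acid transporters 2 were higher and 1 lower of 16, while the heavy chain Slc3a2 was 144 against 148 FPKM. Slc2a6, a lysosomal sugar transporter, was 9.71 against 0.428 FPKM, a log2 ratio of 2.91. The prostaglandin transporter Slco2a1 was 138 against 53.4 FPKM, a log2 ratio of 1.35. Over all 186 measured solute carriers, a family taken after the values were seen, 13 were higher and 10 lower, 12.4% in all.

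Transcription factors had the smallest share past 2-fold of the 4 classes, but a few factors of kidney identity differed widely. Irx3, of tubule patterning, was 3.86 against 48.2 FPKM, a log2 ratio of -3.34. Ehf, an epithelial ETS factor, was 0.845 against 3.69 FPKM. Pax8 was 129 against 206 FPKM, a log2 ratio of -0.68, within 2-fold. Tfap2b and Tfap2a, of distal nephron and surface ectoderm, were 15.7 against 1.17 FPKM, a log2 ratio of 2.94 and 16.8 against 4.23 FPKM, a log2 ratio of 1.76. Eya1, of early kidney development, was 4.45 against 0.0490 FPKM, a log2 ratio of 2.38, and the locus that joins Gata3, a factor of the nephric duct, with 9230102O04Rik was 2.62 against 0.175 FPKM. Of 21 kidney lineage factors 4 were higher and 3 lower.

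Of 27 measured Hox genes 2 were higher and 1 was lower, and the median was -0.13. Hoxd13, of the most posterior domain, was 21.0 against 0.0455 FPKM, a log2 ratio of 4.39, with 32.8 against 0.0464 FPKM in serum-replete medium, while Hoxb13, its paralog, was 1.71 FPKM and listed at 0 in the floxed library. Hoxb8 was 15.2 against 44.4 FPKM, a log2 ratio of -1.49, while its neighbor Hoxb9 was 131 against 80.2 FPKM, a log2 ratio of 0.70. Of other homeobox factors, Msx1 was 4.03 against 0.316 FPKM, and Irx5 was lower, at 1.65 against 6.96 FPKM, a log2 ratio of -1.59.

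AP-1 and related basic leucine zipper genes were higher in 7 of 27 and lower in 1. Fosl1 (FRA-1) was 17.6 against 2.99 FPKM, a log2 ratio of 2.22. Fos was 24.99 against 7.02 FPKM, a log2 ratio of 1.70. Maf, a large basic leucine zipper factor, was 6.55 against 0.0502 FPKM, a log2 ratio of 2.85. The stress factor Atf3 was 69.9 against 28.3 FPKM, a log2 ratio of 1.27. Maff was 99.7 against 45.5 FPKM, a log2 ratio of 1.12. Of EGR, KLF and immediate early genes 5 were higher and 2 lower of 24: Zfp36, which destabilizes cytokine mRNAs, was 45.6 against 8.86 FPKM, a log2 ratio of 2.24. Ier3 was 152 against 45.5 FPKM, a log2 ratio of 1.72. On the lower side Klf7 was 5.79 against 19.7 FPKM, a log2 ratio of -1.61. Myc was 46.5 against 95.5 FPKM, a log2 ratio of -1.02. With serum Fos was 4.62 against 9.31 FPKM, the other direction, but within 2-fold.

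Of 25 SMAD, SKI, TEAD and YAP genes 5 were higher and 1 was lower. Vgll3, a TEAD cofactor, was 35.2 against 3.09 FPKM, a log2 ratio of 3.15. Tead4 was 18.7 against 5.28 FPKM, a log2 ratio of 1.65. Tead1 was 78.3 against 37.4 FPKM, a log2 ratio of 1.05, within 2-fold on the upper-quartile scale. Wwtr1 (TAZ) was 96.6 against 70.0 FPKM, a log2 ratio of 0.46, within 2-fold, and Smad2 was 79.4 against 86.0 FPKM, a log2 ratio of -0.11. Id2 and Id3, which block basic helix-loop-helix factors and are BMP targets, were lower, at 29.3 against 96.3 FPKM, a log2 ratio of -1.68 and 1.97 against 5.27 FPKM, a log2 ratio of -1.08. With serum Id3 was 155 against 96.9 FPKM. None of 10 measured epithelial-mesenchymal transition factors was past 2-fold after starvation, with a median of -0.41, while 6 of 10 were lower in serum-replete medium.

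Of 27 nuclear receptors 4 were lower and 0 higher. Esrrg, of mitochondrial and tubular energy programs, was 2.52 against 14.7 FPKM, a log2 ratio of -2.15. Pparg was 1.18 against 5.45 FPKM, a log2 ratio of -1.56. Vdr, the vitamin D receptor, was 0.461 against 3.15 FPKM. Sox9, a factor of injured and repairing tubule, was 11.9 against 3.15 FPKM, a log2 ratio of 1.64. Sox12 was 2.18 against 10.4 FPKM, a log2 ratio of -1.85. Of IRF, STAT and NF-κB genes 3 were higher and 0 lower of 26: Stat2 was 14.8 against 5.90 FPKM, a log2 ratio of 1.19. The inhibitors Nfkbia and Nfkbie were 34.6 against 14.4 FPKM, a log2 ratio of 1.21 and 13.9 against 5.38 FPKM, a log2 ratio of 1.22.

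Reference lists give a frame for these values. Of 21 interferon-stimulated genes 9 were higher and 1 was lower, with Isg15 at 31.4 against 6.61 FPKM, a log2 ratio of 2.09. The exception, Ifit3, was 41.3 against 206 FPKM, a log2 ratio of -2.29. An adenovirus was given to TβRII-/- cells only, and its part in these genes was not tested. Of 23 p53 targets 8 were higher and 0 lower, with Cdkn1a at 184 against 50.9 FPKM, a log2 ratio of 1.84. The kinase gene Plk2 was 224 against 66.1 FPKM, a log2 ratio of 1.74. TGF-β-induced targets were split, 4 higher and 3 lower of 24 with a median of 0.17. In serum-replete medium 1 of 26 was higher and 8 were lower, with a median of -0.53. Housekeeping genes had a median of 0.28, with 3 of 20 higher, B2m, Actb at 2223 against 998 FPKM, a log2 ratio of 1.15 and Pgk1.

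Gene families were also read by symbol, after the values had been seen. Of 6 measured keratins 3 were higher, Krt7 at 362 against 53.9 FPKM, a log2 ratio of 2.72. Krt80, a keratin of stratified epithelium, was 36.2 against 2.502 FPKM, a log2 ratio of 3.41. Krt20 was 17.7 against 0.495 FPKM, a log2 ratio of 3.64, and Krt8 was lower. Of 9 S100a genes 5 were higher and 0 lower, with S100a11 at 4571 against 1996 FPKM, a log2 ratio of 1.20. S100a10, the partner of annexin A2, was 629 against 211 FPKM, a log2 ratio of 1.57. Of 17 tetraspanins 0 were higher and 5 lower, among them Tspan18 at 2.63 against 26.2 FPKM, a log2 ratio of -2.91. The 78 measured cytosolic ribosomal protein genes had a median of -0.37, with 2 past 2-fold, and of 284 zinc finger genes named Zfp only 3 were higher and 4 lower.

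Among protein-coding genes that share no locus and reached at least 1 FPKM in the other library, the TβRII-/- library was listed at 0 in 27 and the TβRII fl/fl library in 27 others. Among the first were Kit, at 1.14 FPKM in the floxed library, and the neighboring genes Cdkn2a and Cdkn2b, at 5.94 and 2.45 FPKM there. Of the first 27, 22 were also at 0 in the serum-replete TβRII-/- library, and 14 of the second 27 were at 0 in the serum-replete TβRII fl/fl library. Status FAIL applied to 2 and 5 of them.

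The log2 ratios also shifted by chromosome. Among 8304 genes with at least 5 FPKM in all 4 libraries the median was 0.06. On chromosome 4 it was 0.42 (520 genes, 84.4% above 0), on chromosome 9 it was 0.33 (472 genes), on chromosome 16 it was -0.37 (274 genes, 16.8% above 0) and on chromosome 8 it was -0.23 (479 genes). The medians were close in serum-replete medium, at 0.35, 0.24, -0.36 and -0.19. Along chromosome 4 the 8 consecutive segments with equal numbers of genes had medians from 0.19 to 0.50, and along chromosome 16 they ranged from -0.52 to -0.19. Of the genes measured on chromosome 4, 14.2% were called higher and 5.91% lower, and on chromosome 16 it was 3.76% and 12.5%. The shift is small beside a 2-fold call but moves genes near the threshold, such as Agrn on chromosome 4. Gene copy number was not measured, and its part was not tested.

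**Figure D4:**
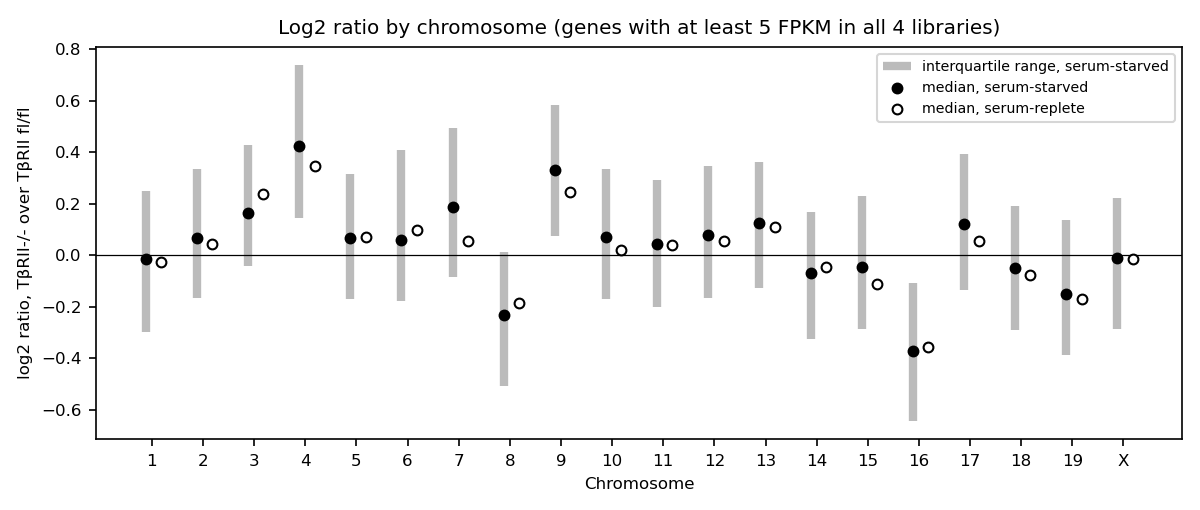
Median log2 ratio of TβRII-/- to TβRII fl/fl cells by chromosome in serum-starved (filled) and serum-replete medium (open), over genes with at least 5 FPKM in all 4 libraries, with grey bars for the interquartile range of genes in serum-starved cells. Chromosome 4 (0.42 and 0.35) and chromosome 9 (0.33 and 0.24) lie above 0 and chromosome 16 (-0.37 and -0.36) and chromosome 8 (-0.23 and -0.19) below it in both media.

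Set beside serum-replete cells, the starved comparison held more genes called higher and fewer called lower. In serum-replete medium 884 of 12635 genes (7.0%) were higher and 1408 (11.1%) lower. On the upper-quartile scale the starved counts were 837 higher and 986 lower, and the serum-replete counts were not rescaled. The larger count of higher genes after starvation thus depends on the scale. Of the 1018 genes higher after starvation 361 were also higher in serum-replete medium, 35 were lower and 622 were not called. Of the 842 lower genes 554 were also lower, 36 were higher and 252 were not called. In the plot of list medians, 48 of the 54 lists of the 4 classes had a higher median after starvation. Of the 14 higher cholesterol genes 0 were also called higher with serum, and of the 14 higher glycolysis genes 2. Of the 47 higher members of the membrane lists, 19 were also higher with serum, and of the 56 lower members 52 were also lower. Among genes called in both media, Pdpn was 97.8 against 3.50 FPKM in serum-replete medium, Dkk3 0.281 against 221 FPKM, Cldn1 6.26 against 67.5 FPKM, Sema3a 60.6 against 3.91 FPKM and Irx3 2.45 against 39.3 FPKM. The tables of the media were normalized separately, and the difference between media was not tested.

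**Figure D5:**
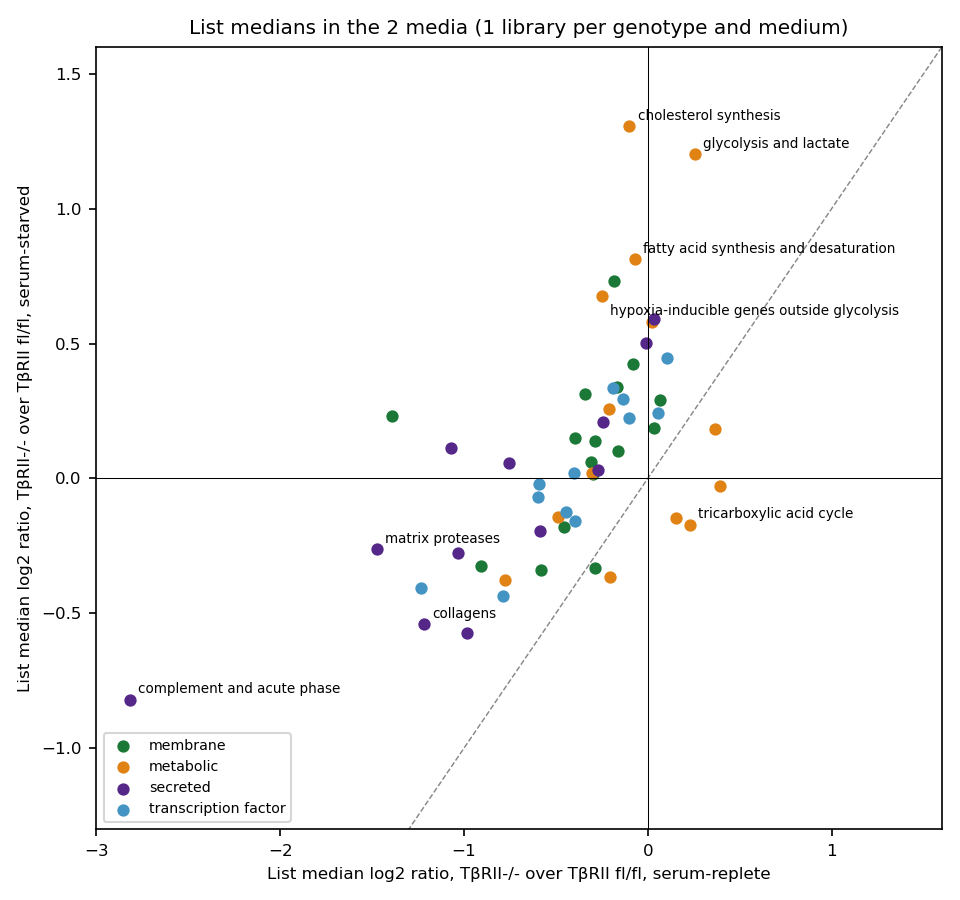
Median log2 ratio of TβRII-/- to TβRII fl/fl cells for each of the 54 lists of metabolic, secreted, membrane and transcription factor genes, in serum-replete medium on the horizontal and serum-starved medium on the vertical axis, 1 library per genotype and medium. The dashed line marks equal medians; cholesterol synthesis (1.31 against -0.10) and glycolysis (1.20 against 0.26) lie farthest above 0 on the vertical axis and complement (-0.82 against -2.82) farthest to the left.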

How the data were processed

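Total RNA of TβRII-/- and TβRII fl/fl IMCD cells, serum-starved or serum-replete, was prepared with Qiagen RNeasy and sequenced as 50-base reads on an Illumina HiSeq. The authors deposited 1 table for each medium with an FPKM value for each gene locus and group, next to their own log2 fold changes, test statistics, p-values, q-values and significance marks, which were not used. According to the submitters' processing notes the tools were TopHat2, Cufflinks and Cuffdiff on mm10. The version of each is not given in the sources used here, nor is the strand setting of the counting. Coordinates are those of mm10, and reads of overlapping genes cannot be told apart.

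From the FPKM the log2 ratio was computed with a pseudocount of 1 FPKM over loci that reached 1 FPKM in either library of a medium, which understates the ratio of low genes, and 2-fold was the threshold for a call. The 458 loci that join several genes were kept, and the Cuffdiff status of each locus was read from the tables. Groups came from the labels, and 0 columns of per-sample values were left unmapped. With 1 library a group no test was run. Depth was read from the steps between low FPKM values, of which 61.7% and 56.4% lay within 10% of a whole step, too few to recover reads.

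The members and the 65 gene lists were chosen with earlier results of these data known, so no list is independent evidence. Of 1611 symbols in the lists 1 had no locus, and 1068 of 1603 loci were measured. Named genes are Tgfbr2, the 15 highest and 15 lowest ratios among protein-coding loci of 1 gene with at least 5 FPKM, in each list up to 6 members past 2-fold by size of the ratio with at least 5 FPKM and the 2 with the highest level, and markers of the labelled cell type. The list of at least 10 genes with the largest share past 2-fold is given in full, apart from members that, like a few other genes, are not reported here. Outside that rule, chosen after their values were seen, are Aldh2, Arg2, Bdnf, Cdkn2a, Cdkn2b, Col4a2, Efnb1, Ehf, Eno1, Ereg, Eya1, Eya2, Gapdh, Gpc1, Gpx4, Gstm7, Gstt1, Hif1a, Hk2, Hoxb13, Hsd11b2, Kit, Krt20, Krt80, Maff, Mdh2, Me1, Msx1, Nr3c2, Pfkm, Pfkp, Postn, S100a10, S100a11, Scnn1g, Sema3g, Sema4c, Sema4d, Sema5a, Smad2, Srebf1, Tagln, Tapbp, Tpi1, Tspan18 and Vdr. Promoters came from RefSeq. Alternatives were pseudocounts of 0.1 and 0.5 FPKM, a filter of 5 FPKM or none, folds of 1.5 and 4, centring on the median, upper-quartile rescaling, only loci of 1 gene and only loci with status OK. Centring on chromosome medians was added after the data were seen. Scripts ran in python 3.11.15 with numpy 2.4.6 and pandas 2.3.3, and the counting of calls was tested on simulated data.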

Additional observations from a re-analysis of the deposited data

Results flagged for a closer look

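In 5 named genes the log2 ratio was past 2-fold in opposite directions in the 2 media. The difference between media was not tested, the tables were normalized separately, and each value rests on 1 library a side. Plau, the urokinase plasminogen activator, was 389.8 against 1126 FPKM with a log2 ratio of -1.53 after starvation and 597 against 251.5 FPKM with 1.24 when serum was present. The mitochondrial folate enzyme Aldh1l2 had log2 ratios of 1.06 and -1.68, and the first is under 2-fold on the upper-quartile scale. Prmt2 had 4.47 and -1.23. Syne2, a nuclear envelope protein, had 5.86 and -5.07, but it was listed at 0 in the floxed serum-starved and in the Cre-treated serum-replete library. Psd3 had 4.10 and -1.58 and was listed at 0 in the floxed serum-starved library. The deposited status of both in serum-starved cells was FAIL, so their values may be failed estimates.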

How the results depend on the processing

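With 1 library a group, no library could be left out and nothing checks these ratios against replicate error. No paired analysis was possible because each group has 1 library and no test was run. The count of lower genes was 561 with a filter of 5 FPKM, against 842. At 1.5-fold 2084 genes were higher and 1740 lower, and at 4-fold 308 and 250. Over the other settings tried, 808 to 1239 genes were higher and 561 to 1113 lower. Upper-quartile rescaling (a factor of 0.907 on the Cre-treated library) moved the median ratio to -0.10 and the share of higher among called genes from 54.7% to 45.9%, and 19 named genes lost their call, among them Vegfa, Slc2a1, Aldoa, Mmp14, Agrn, Tead1, Vim, Chac1, Aldh1l2 and B2m, while Tgfbr2 passed 2-fold lower. Centring on chromosome medians, chosen after seeing the data, left 885 genes higher and 892 lower, and 26 named genes lost their call. No named gene that was called changed direction under any setting. With the filter of 5 FPKM the members past 2-fold fell to 6 for matricellular proteins, to 4 for collecting duct transport and to 6 for interferon-stimulated genes, where fewer genes entered. For the 22 lists that lead the text, the count was within 1.5 times in 195 of 198 combinations of list and setting; over all 58 lists it was outside that range in 26 of 522, of which 11 were with the filter of 5 FPKM. Depth limits the lowest values: on the rough depth estimate, 3 reads on a transcript of 2000 bases are worth about 0.0499 and 0.0501 FPKM.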
